A study of Mus musculus with 27 samples.

Results

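The genes described here are 10 transcription regulators of T lineage commitment: Tcf7, Lef1, Bcl11b, Tox, Tox2, Sox4, Satb1, Zbtb7b, Zeb1 and Tle6. They were chosen by symbol, and all 10 were found in each of the 3 deposited count tables, which list 46078, 22906 and 46078 genes. The study asked how TAL1, a transcription factor of T-cell acute lymphoblastic leukemia, acts together with activation of the PI3K/AKT pathway. RNA was sequenced from the thymus of 12 C57BL/6 mice that had received a bone marrow transplant, in 4 groups of 3 mice. One table holds mice with an empty vector and mice with TAL1 overexpression. Another holds mice with AKT(E17K), a mutant AKT kinase that is constantly active, and mice with constitutive expression of both TAL1 and AKT(E17K). The third holds 15 libraries of ProT cells, a cell line in which CreER and LoxP are used to induce TAL1 with 4OH tamoxifen, 3 each at 0, 6, 12, 18 and 24 h. ProT libraries after 0 h carry the drug as well as the induction, and no group with the drug alone was analysed here. The labels name neither the promoter of any vector, nor the age of the mice, nor whether ProT libraries came from separate cultures. P-values from ProT cells therefore measure only the spread between these libraries, which may be technical.

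T cell precursors that settle in the thymus lose other fates step by step under NOTCH signalling. TCF1, the product of Tcf7, acts early in this process, and Bcl11b then seals the commitment. The other factors work at different steps: LEF1 shares DNA sites with TCF1, TOX and ThPOK (Zbtb7b) act on the CD4 lineage, and SATB1 organizes chromatin in thymocytes.

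Counts assigned to genes ranged from 2073752 to 11302098 per library, and the TAL1 mice (from 7155918) were sequenced more deeply than the empty-vector mice (up to 5915285). Levels are given as CPM, in which a library's counts are scaled to a common total and adjusted by a composition factor. Changes are log2 fold changes from edgeR's quasi-likelihood test with their standard error (SE), and a gene was called where the p adjusted over all tested genes by Benjamini-Hochberg was under 0.05. Mouse Tal1 had 0 counts in 11 of the 12 thymus libraries, including all 6 labelled with TAL1, and 7 counts in 1 AKT(E17K) mouse. In ProT cells it was already high at 0 h, and lay between 2895 and 3608 CPM at 0 and 6 h. From 12 h it was lower, between 1779 and 2358 CPM, although the labels name induced expression of TAL1. The part of this fall in the members' changes between 6 and 12 h was not tested. In the thymus the mouse gene's count is thus no check of a TAL1 label, and in ProT cells it moved against the label. Each direction below rests on the labels. Each of the 7 T cell markers on the list used was detected both in the empty-vector thymus, where they summed to 4616 to 5326 CPM, and in ProT cells at 0 h, where they summed to 531.7 to 535.3 CPM. ProT cells at 0 h had no count of Cd4, Cd8a or Cd8b1, which are not on that list.

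Per kilobase of exon, Tcf7 was the most abundant of the 10 genes in the empty-vector thymus (491.9 CPM per kb), ahead of Bcl11b (309.4) and Satb1 (253.5). Lef1 followed at 72.0 CPM per kb, and Zbtb7b was last by its mean, at 2.12. The ranges of Bcl11b and Satb1 overlapped there, as did those of Sox4 and Tox. Neighbours among Zeb1, Tle6, Tox2 and Zbtb7b overlapped too, so that these 3 mice do not set the order within these pairs or which gene is last. In the AKT(E17K) thymus the order began with Bcl11b (203.5 CPM per kb), Sox4 (128.2) and Satb1 (111.5), followed by Tcf7 at 80.7, and the ranges of Bcl11b and Sox4 did not overlap while those of Sox4 and Satb1 did. In ProT cells at 0 h Sox4 was first at 151.1 CPM per kb, followed by Tcf7 (81.8) and Bcl11b (37.7). These levels come from tables of separate experiments, so that table and group cannot be told apart, and no test was made across them. Sox4's place should not be compared between tables, since its reads cannot be told from those of Gm26735, an overlapping gene described below. By CPM alone, Satb1 ranked 9th and Bcl11b 17th of 12357 tested genes in the empty-vector thymus, and Lef1 ranked 12247th of 13610 in ProT cells at 0 h.

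**Figure D1:**
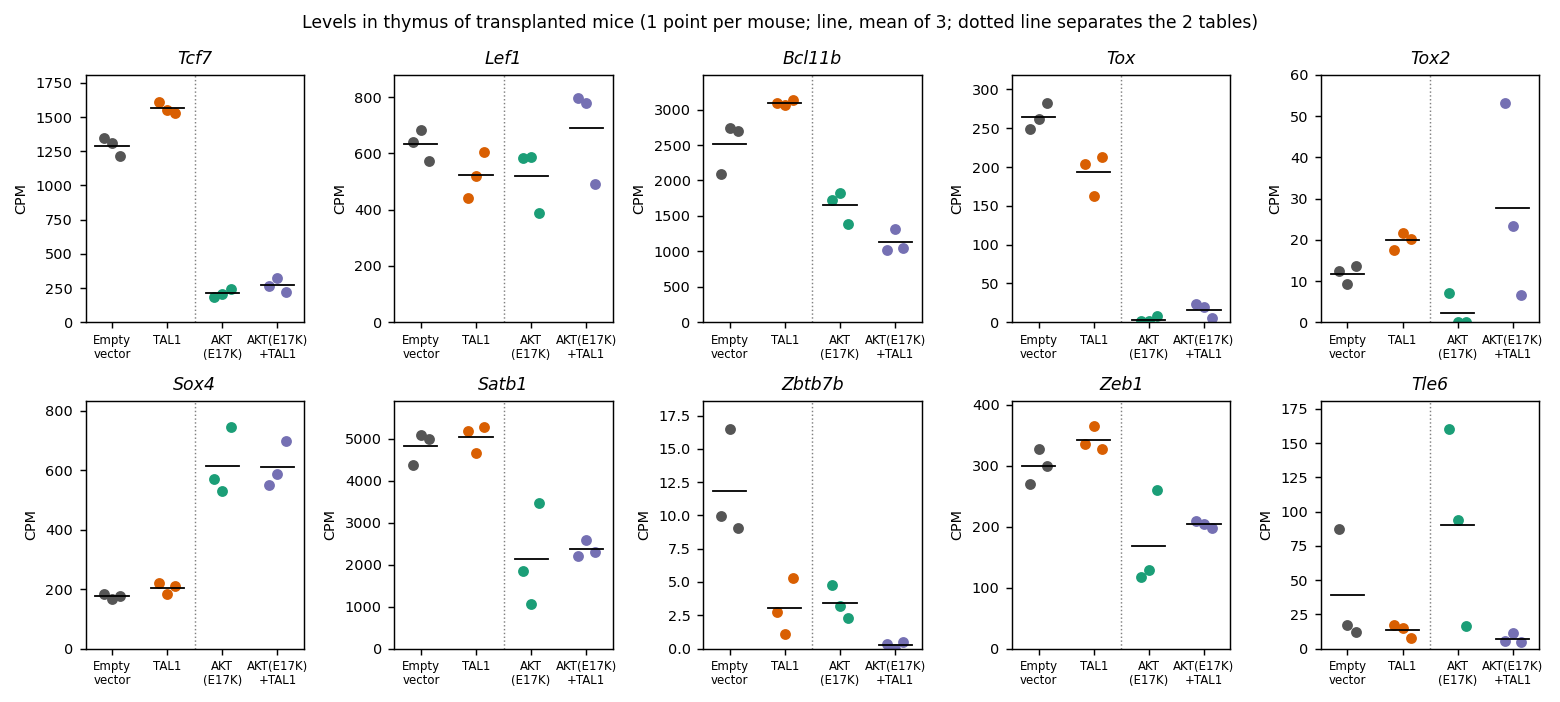
Levels (CPM, vertical axes from 0) of the 10 genes in each of 12 thymus libraries by group; points are mice and lines are means of 3. Tox and Zbtb7b lie lower in every TAL1 mouse than in every empty-vector mouse, and Tle6 spreads from 16.5 to 160.1 CPM among AKT(E17K) mice.

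In the thymus of TAL1 mice, Tox and Zbtb7b were lower than in empty-vector mice, and the other 8 genes did not pass the test. Of all genes tested, 2.88% were called lower and 2.16% higher. In 7 of the 10 genes the 2 groups did not overlap, 5 of them with every TAL1 mouse higher and 2 with every TAL1 mouse lower. Among all tested genes, 11.7% were so separated upward and 11.5% downward. The members' median log2 fold change was 0.13, against -0.0035 over all tested genes.

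Tox encodes an HMG-box factor needed for the CD4 lineage. Its levels were 249.5, 261.9 and 282.4 CPM in the empty-vector mice and 204.0, 162.2 and 213.0 CPM in the TAL1 mice. All TAL1 mice thus lay below all empty-vector mice, and the log2 fold change was -0.45 ± 0.11 (SE, n = 3 and 3; edgeR adjusted p = 0.0385). Zbtb7b encodes ThPOK, the master factor of CD4 helper fate. It stood at 9.98, 16.5 and 9.05 CPM in the empty-vector mice and 2.72, 1.10 and 5.30 CPM in the TAL1 mice, on 43 to 64 and 8 to 59 counts. Again no mouse overlapped, with a log2 fold change of -1.91 ± 0.50 (edgeR adjusted p = 0.0468). Both calls were lost on leaving out M312, M315, M317 or M318, with adjusted p up to 0.156 for Tox and 0.213 for Zbtb7b. Leaving out M311 also ended the call of Zbtb7b (adjusted p = 0.0513).

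Tcf7, which encodes TCF1, measured 1347, 1311 and 1215 CPM in the empty-vector mice and 1610, 1552 and 1528 CPM in the TAL1 mice. Every TAL1 mouse was higher, but the difference of 0.28 ± 0.07 just missed the threshold with edgeR (adjusted p = 0.0504). DESeq2 called it (adjusted p = 0.0213), as did edgeR without M311 (adjusted p = 0.0302). Bcl11b, the commitment factor, had 2092, 2734 and 2702 CPM against 3095, 3060 and 3139 CPM, a difference of 0.30 ± 0.09 that was not called (edgeR adjusted p = 0.093) except when genes of low count were kept in the fit (adjusted p = 0.013). Tox2, a relative of Tox, went from 9.26 to 13.7 CPM in empty-vector mice to 17.6 to 21.7 CPM in TAL1 mice without passing the test (0.74 ± 0.24, edgeR adjusted p = 0.108). Sox4 and Zeb1, a zinc-finger repressor, were also separated upward without a call, by 0.22 ± 0.10 and 0.20 ± 0.10.

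Lef1 and Satb1 overlapped between the groups. Lef1 covered 574.8 to 681.9 CPM in empty-vector mice and 440.0 to 606.0 CPM in TAL1 mice (-0.28 ± 0.11, edgeR adjusted p = 0.224). Satb1 covered 4373 to 5100 and 4655 to 5270 CPM (0.06 ± 0.08). Tle6, a Groucho-family corepressor, was high in 1 empty-vector mouse, M311, at 87.0 CPM, beside 17.2 and 12.2 CPM in the other two. The TAL1 mice had 16.9, 15.1 and 8.0 CPM, overlapping the empty-vector group. The difference of -1.58 ± 0.58 was not called (edgeR adjusted p = 0.163) and came to -0.15 without M311. With genes of low count kept in the fit it was called (edgeR adjusted p = 3.64e-09).

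Markers of thymocyte stages moved with these genes. The 8 mature T cell markers summed to between 997.9 and 1031 CPM in the empty-vector mice and 340.8 to 481.9 CPM in the TAL1 mice, with 6 of 8 called lower. The 8 markers of double-positive thymocytes, the stage before CD4 and CD8 cells part, summed to 7223 to 8638 and 9768 to 11030 CPM, with 4 of 8 called higher, and none of either list was at 0 in a whole group. The 8 stroma and endothelium markers summed to 145.6 to 193.1 CPM in the empty-vector mice and 107.8 to 113.5 CPM in the TAL1 mice, without overlap, and Pecam1 among them was called lower. The 7 myeloid markers summed to 369.8 CPM in M318, the TAL1 mouse with the lowest Tox and Zbtb7b, and to 9.72 to 28.8 CPM in the other 5 mice. The part of these markers in the values of Tox, Zbtb7b and Tcf7 was not tested. In whole thymus, fewer cells of a type and less RNA per cell cannot be told apart.

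Other regulators of the lineage moved in both directions. Of 22 other T lineage regulators, all tested, 2 were higher and 2 lower (median 0.05), where 2.16% of all genes were higher and 2.88% lower. Nfatc3 rose by 0.43 ± 0.09, while Bach2, a repressor of effector genes, fell by 2.10 ± 0.24 and Runx3, the CD8 lineage factor, fell by 0.82 ± 0.16. Of 19 tested cofactors of TCF/LEF and TLE proteins none was called by edgeR, and DESeq2 called 1. Of 20 T identity genes, Dntt (0.61 ± 0.08) and Cd8b1 (0.30 ± 0.08) were higher, and Cd2 (-0.81 ± 0.14) and Cd5 (-0.67 ± 0.17) were lower. Of 7 tested progenitor and alternative lineage genes, Il2rb (-2.74 ± 0.32) and Id2 (-0.79 ± 0.15) were lower. None of 11 tested paralogs of the members was called.

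In mice that carried AKT(E17K), adding TAL1 gave no call in any member. Of all 9782 genes tested with edgeR, 0% were called in either direction, 709 had an unadjusted p under 0.05, and DESeq2 called 76. Of the 10 members 9 were tested, with a median log2 fold change of 0.27 against -0.01 over all genes. In 3 genes, Bcl11b, Tle6 and Zbtb7b, every mouse with both was lower than every AKT(E17K) mouse. Among all tested genes 5.72% were so separated downward and 6.18% upward.

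Tle6 had the largest fold of the tested members. With AKT(E17K) alone the 3 mice had 160.1, 93.8 and 16.5 CPM, and with TAL1 added 5.28, 11.7 and 4.66 CPM. The AKT(E17K) mice spanned a wide range, and the log2 fold change was -3.62 ± 0.75 (edgeR adjusted p = 0.36). DESeq2 called it (adjusted p = 1.04e-05), and edgeR called it without m124 (adjusted p = 0.0285). The AKT(E17K) mouse with the most Tle6, m121, also had the highest sum of the 8 stroma and endothelium markers (512.8 CPM). It was highest of the 3 in the myeloid, dendritic, erythroid, B cell and thymic epithelium sums too. The next by Tle6, m122, had the lowest stroma and endothelium sum (45.3 CPM), beside 138.9 CPM in m124. The part of these markers in the Tle6 result was not tested. Over the AKT(E17K) mice the myeloid sums ran from 74.8 to 776.1 CPM and the erythroid sums from 125.9 to 937.2 CPM. With TAL1 added they ran from 73.2 to 331.3 and from 85.3 to 454.7 CPM. Mature T cell markers summed to 26.9 to 52.7 CPM with AKT(E17K) alone and 76.0 to 117.2 CPM with TAL1 added, without overlap. Against empty-vector mice they were lower in TAL1 mice. B cell sums (12.6 to 24.3 and 0.47 to 7.7 CPM) and thymic epithelium sums (9.5 to 32.0 and 7.06 to 7.46 CPM) were lower with TAL1 added, also without overlap. No marker was called by edgeR, and their part in the members' values was not tested.

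Bcl11b measured 1731, 1830 and 1391 CPM with AKT(E17K) alone and 1025, 1320 and 1046 CPM with TAL1 added. The difference of -0.55 ± 0.24 was not called (edgeR adjusted p = 0.68). Zbtb7b had 15, 6 and 9 counts in AKT(E17K) mice and 1, 0 and 1 with TAL1 added, too few for the test. Tox was near its floor in 2 of the AKT(E17K) mice, with 3, 2 and 33 counts, and had 66, 56 and 13 counts with TAL1 added. These came to 0.96 to 8.49 CPM against 6.06 to 23.2 CPM, so that the groups overlapped (2.13 ± 0.83, edgeR adjusted p = 0.673). Tox2 had 22, 0 and 0 counts in AKT(E17K) mice, and the limit that a count of 0 allows was 1.58 CPM in m122 and 0.772 CPM in m124. With TAL1 added it stood at 53.2, 23.3 and 6.52 CPM, again overlapping the mouse at 7.05 CPM and not called (edgeR adjusted p = 0.615).

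The remaining 5 genes overlapped between these groups. Tcf7 covered 183.8 to 242.8 CPM in AKT(E17K) mice and 222.7 to 322.7 CPM with TAL1 added, and Lef1 covered 389.1 to 586.2 and 490.2 to 797.1 CPM. Satb1 ran from 1052 to 3461 CPM in AKT(E17K) mice, wider than the 2216 to 2594 CPM with TAL1 added. Zeb1 covered 117.9 to 259.7 and 197.1 to 209.8 CPM. Sox4 covered 528.8 to 745.0 and 551.0 to 699.4 CPM, with a 95% interval of the log2 fold change from -0.54 to 0.52. These intervals are wide: the variation between mice, as edgeR's coefficient of variation, was 35.0% in this table against 22.0% in the table of empty-vector and TAL1 mice.

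The TAL1 effect in the AKT(E17K) table was set against that in the other table in 1 model. The difference is the TAL1 log2 fold change with AKT(E17K) minus that without, so that a positive value need not mean a larger change. Of 11029 genes, 0.163% (18 genes) were called with a positive difference and 0% with a negative one, and none of the 10 members was called. Among the 18 were 3 of the 8 mature T cell markers, whose median difference was 2.27, against -0.011 over all genes. The part of these markers in the members' estimates was not tested. The number of called genes depended on the libraries and the tool, from 2 to 174 on leaving out 1 library (174 without m124, 107 of them positive) and 177 with DESeq2. Lef1, Tox and Tox2 had estimates on the positive side of this difference (0.71 ± 0.31, 2.53 ± 0.71 and 2.76 ± 1.22, edgeR adjusted p = 0.427, 0.209 and 0.434). Bcl11b lay on the negative side at -0.82 ± 0.24, without a call by edgeR (adjusted p = 0.233) and with one by DESeq2 (adjusted p = 0.0406). Tle6 and Zbtb7b were also negative, at -2.03 ± 1.12 and -1.65 ± 1.15 (edgeR adjusted p = 0.527 and 0.63). The Zbtb7b estimate rests on few reads, since the gene was too low to be tested in the AKT(E17K) table. With TAL1 added it had 2 counts there over all 3 mice. Without m124, the AKT(E17K) mouse with 33 counts of Tox, Tox was called (4.51, adjusted p = 0.0112). Table and AKT(E17K) coincide, so that experiment and genotype cannot be told apart in this contrast or in the levels beneath it.

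**Figure D2:**
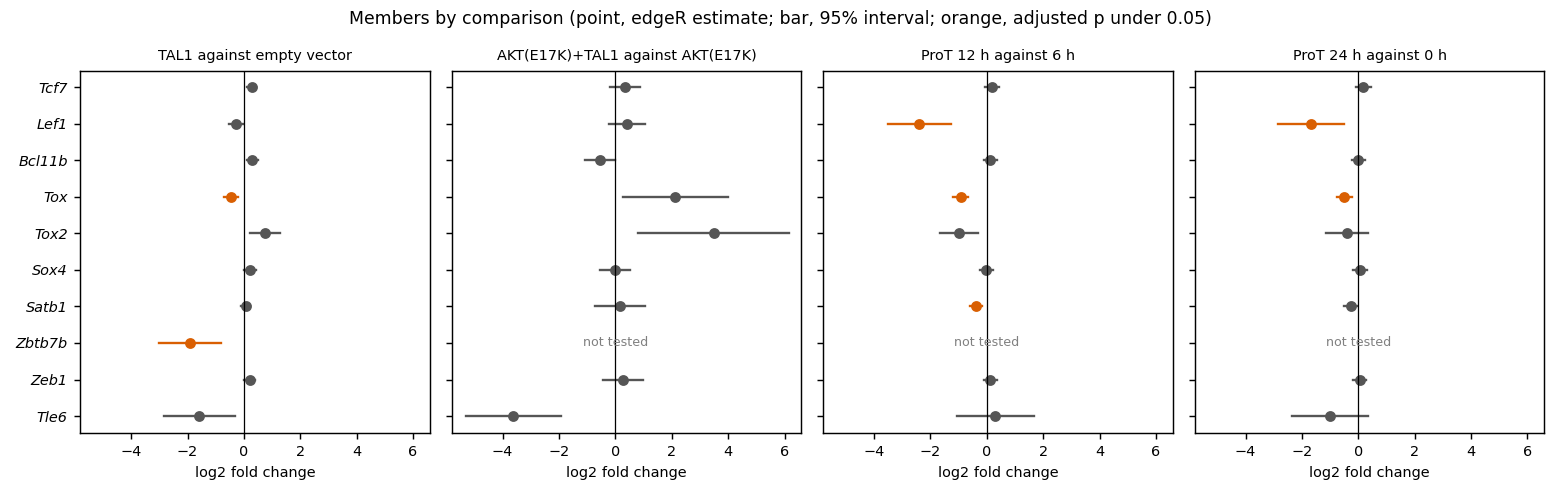
Log2 fold change (horizontal axes) of each gene in 4 comparisons, with 95% intervals; orange marks adjusted p under 0.05 and genes with too few counts are written as not tested. The calls are Tox and Zbtb7b in the first panel, Lef1, Tox and Satb1 at 12 h against 6 h, and Lef1 and Tox at 24 h against 0 h.

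In ProT cells, Lef1 and Tox fell between 6 and 12 h and stayed low, and Satb1 fell in the same interval. At 6 h none of the 9 tested members differed from 0 h, nor did any of 13610 genes by edgeR (734 had an unadjusted p under 0.05, and DESeq2 called 1 gene). From 6 to 12 h, 3 members were lower and none higher, where 5.31% of all genes were called lower and 5.54% higher. Over all times, 3 members varied, Lef1, Tox and Satb1, where 18.0% of genes did. These comparisons share libraries, so that their values are not independent of each other. From 6 to 12 h the libraries of 4 members, Lef1, Tox, Tox2 and Satb1, did not overlap and lay lower, where 12.1% of genes were so separated downward and 11.7% upward. Against 0 h, 2 members were so separated upward at 6 h and none downward (4.75% and 4.64% of genes), and 1 upward and 4 downward at 12 h (14.8% of genes in each direction). At 18 h it was 1 in each direction (16.3% and 16.0%). At 24 h it was 2 downward, Tox and Satb1, and 1 upward, Zbtb7b (20.4% of genes upward and 20.1% downward). Zbtb7b had 0, 1 and 0 counts at 0 h and 4, 2 and 2 at 24 h, and was not among the tested genes.

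The 250 bases before the RefSeq transcription start are shown for Lef1 and Satb1, because both fell from 6 to 12 h. They are from RefSeq with build GRCm38.p6, 5′ to 3′ on the gene's own strand. Capitals mark an E-box (CANNTG), the motif that basic helix-loop-helix factors such as TAL1 with its E-protein partners bind.
Lef1, chr3:131110047-131110296, plus strand: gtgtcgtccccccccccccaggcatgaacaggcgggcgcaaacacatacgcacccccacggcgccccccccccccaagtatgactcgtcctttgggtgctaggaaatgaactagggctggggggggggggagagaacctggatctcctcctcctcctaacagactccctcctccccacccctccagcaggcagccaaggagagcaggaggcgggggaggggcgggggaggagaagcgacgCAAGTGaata
Satb1, chr17:51833291-51833540, minus strand: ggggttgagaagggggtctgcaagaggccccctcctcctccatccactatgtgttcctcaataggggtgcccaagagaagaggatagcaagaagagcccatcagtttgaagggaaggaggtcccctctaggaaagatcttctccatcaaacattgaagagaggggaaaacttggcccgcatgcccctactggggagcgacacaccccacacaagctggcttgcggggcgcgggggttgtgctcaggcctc
The Lef1 window held 1 E-box and the Satb1 window 0, searched on both strands, and 66.1% of 27018 RefSeq promoter windows of this length held at least 1. Neither window held GATAA (23.0% of windows), CTTTGA (14.1%) or TGTGGT (14.2%), short motifs of GATA, TCF/LEF and RUNX factors. Of the 10 members 8 had an entry in the table, and Tox did not.

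Tox was the clearest of the members in ProT cells. At 0 h it measured 83.2, 77.9 and 96.2 CPM, and 6 h later 95.9, 110.6 and 85.2 CPM. At 12 h it was 56.6, 49.6 and 47.1 CPM, below every earlier library. From 6 to 12 h it fell by 0.92 ± 0.13 on the log2 scale (edgeR adjusted p = 2.11e-05). The 18 h libraries had 54.6, 72.2 and 61.0 CPM and the 24 h libraries 68.8, 57.5 and 56.7 CPM. Against 0 h it was lower by 0.75 ± 0.13, 0.46 ± 0.13 and 0.50 ± 0.13 at 12, 18 and 24 h (edgeR adjusted p = 0.000355, 0.0248 and 0.00844). The calls from 6 to 12 h and at 12 h against 0 h held in every alternative run. The call at 18 h was lost without replicate 1 or 3 of 0 h or of 18 h (adjusted p from 0.0568 to 0.163), and that at 24 h without replicate 3 of 0 h (adjusted p = 0.0624). Every 24 h library lay above every 12 h library, with a difference of 0.25 ± 0.13 that was not called (edgeR adjusted p = 0.592).

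Lef1, the partner of TCF1 at shared sites, was close to the limit of detection in this line. Its counts were 3, 12 and 21 at 0 h. They were 31, 15 and 18 after 6 h, then 5, 8 and 1 after 12 h. The 18 h libraries had 2, 6 and 1 counts and the 24 h libraries 11, 2 and 4. In CPM it covered 3.37 to 4.76 at 6 h and 0.20 to 1.22 at 12 h, without overlap. From 6 to 12 h it fell by 2.40 ± 0.55 (edgeR adjusted p = 0.00471). Against 0 h the log2 fold changes at 12, 18 and 24 h were -2.02 ± 0.59, -2.27 ± 0.64 and -1.68 ± 0.57 (edgeR adjusted p = 0.0247, 0.0256 and 0.0392). The fall from 6 to 12 h was called in every alternative run, among them the one with genes of low count kept. In the main fit Lef1 passed the filter for low counts only through libraries of 0 and 6 h, where it was highest. Its falls from these times are thus not independent of that filter. The calls against 0 h were lost without replicate 2 or 3 of 0 h, and without replicates 1 or 3 of 12 h, 1 or 3 of 18 h and 2 or 3 of 24 h, with adjusted p up to 0.139, 0.128 and 0.196. In fits of 0 h with only 12, 18 or 24 h, Lef1 had too few counts to be tested.

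Satb1 measured 144.9, 168.9 and 152.9 CPM in the 6 h libraries and 119.3, 110.9 and 127.7 CPM in the 12 h libraries. The groups did not overlap, and Satb1 fell by 0.38 ± 0.10 (edgeR adjusted p = 0.0174). The call was lost without replicate 2 of either time (adjusted p = 0.108 and 0.0854), with only those 6 libraries in the fit (adjusted p = 0.125), with genes of low count kept (adjusted p = 0.0502) and when libraries were scaled by their totals alone (adjusted p = 0.13). At 0 h Satb1 stood at 138.9, 140.6 and 135.1 CPM. The 18 h libraries had 130.4, 152.1 and 136.0 CPM, overlapping those at 0 h (0.01 ± 0.11, edgeR adjusted p = 0.957). After 24 h it stood at 113.9, 121.2 and 107.2 CPM. All 24 h libraries were thus lower than all 0 h libraries, yet the difference of -0.27 ± 0.11 was not called (edgeR adjusted p = 0.0698).

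Tcf7 was the only member called higher in ProT cells, and only at 12 h against 0 h. It measured 218.4, 194.2 and 231.5 CPM at 0 h and 272.6, 243.7 and 314.9 CPM at 12 h, a log2 fold change of 0.37 ± 0.12 (edgeR adjusted p = 0.0484). Of all genes 6.33% were called higher at 12 h and 5.69% lower. The call was lost without any 1 of replicates 1, 2 or 3 at 0 h and replicates 1 or 3 at 12 h, with adjusted p from 0.0526 to 0.21, and with only the 2 times compared in the fit (adjusted p = 0.0684). At 18 and 24 h Tcf7 covered 225.7 to 253.3 and 228.4 to 256.0 CPM, overlapping the 0 h libraries. In both comparisons 2 members, Lef1 and Tox, were called lower, where 3.92% and 9.30% of genes were lower and 4.89% and 9.43% higher.

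Tox2, like Tox, was lower at 12 h than at 6 h in every library, but on few counts. It had 33, 23 and 28 counts at 6 h and 24, 17 and 10 at 12 h, a log2 fold change of -0.98 ± 0.33 that missed the threshold (edgeR adjusted p = 0.0547) and passed it without replicate 1 of 12 h (adjusted p = 0.0392). Bcl11b covered 257.6 to 361.5 CPM and Zeb1 52.2 to 67.0 CPM over all 15 libraries, without a call at any time. For Bcl11b the 95% interval of the 24 h change ran from -0.23 to 0.22, and for Zeb1 from -0.19 to 0.28. Tle6 had 2 to 15 counts per library and was not called. Zbtb7b had 0 to 4 counts per library and was not tested. From 12 to 24 h no member was called, where 0.0367% of genes were higher and 0.154% lower, and the libraries of 1 member, Tox, did not overlap (7.06% of genes upward and 6.71% downward).

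**Figure D3:**
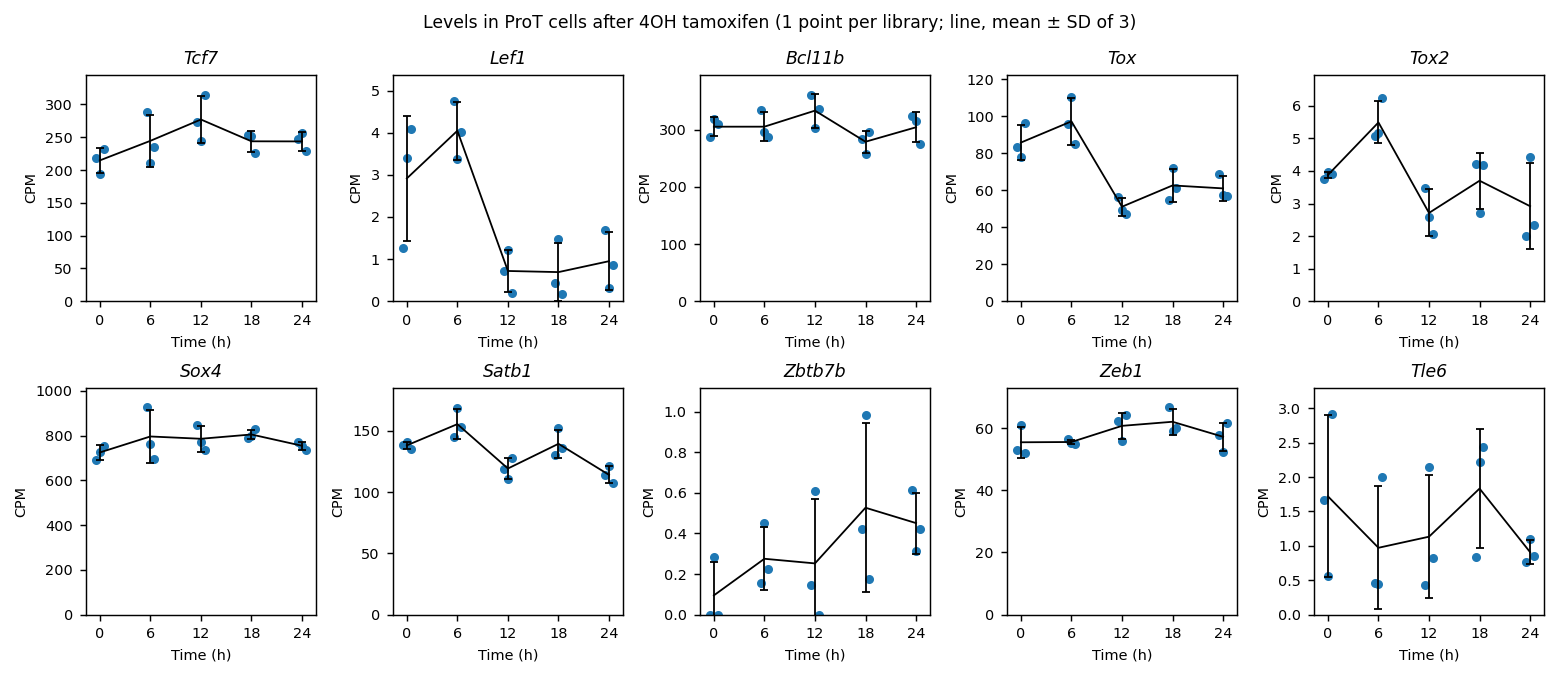
Levels (CPM, vertical axes from 0) of the 10 genes in ProT cells against hours of 4OH tamoxifen; points are libraries, and lines join means with SD of 3. Lef1 and Tox step down between 6 and 12 h, while Bcl11b and Zeb1 were not called at any time.

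Composition scaling bears on these values. With libraries scaled by their totals alone, the median of all genes moved to 0.18, 0.13 and 0.17 at 12, 18 and 24 h against 0 h, from -0.0062, -0.0098 and -0.0148. The share of called genes that were higher moved from 52.7% to 85.8%, from 55.5% to 82.0% and from 50.3% to 80.5% at these times, and from 51.1% to 70.2% at 12 h against 6 h. Under it the difference in Tox was -0.32 at 18 h and -0.31 at 24 h, neither called (edgeR adjusted p = 0.155 and 0.121), and Lef1 at 24 h was not called either (-1.50, adjusted p = 0.0567). The directions of Tox, Lef1 and Satb1 at 12 h against 6 h were the same under that scaling.

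In ProT cells 24 h after the drug, other lineage genes moved in both directions. Of 20 tested T lineage regulators, 6 were higher and 2 lower, where 9.43% of all genes were higher and 9.30% lower. Among them were Egr1 (1.83 ± 0.29), Dtx1 (1.11 ± 0.25) and Hes1 (0.88 ± 0.17), the last 2 targets of NOTCH. Ldb1, an adaptor of the TAL1 complex, was lower (-0.75 ± 0.13), as was Ikzf1 (-0.35 ± 0.11). Of 17 tested TCF/LEF and TLE cofactors, 4 were higher, with Pygo2 (0.61 ± 0.14), Axin1 (0.50 ± 0.16) and Ctbp1 (0.36 ± 0.11) moving most, and 2 were lower, Jup (-1.77 ± 0.62) and Gsk3b (-0.40 ± 0.11). Of 14 tested T identity genes, Cd5 was higher (0.72 ± 0.26) and 4 were lower, among them the costimulatory receptor Cd28 (-0.93 ± 0.16) and the adaptor Lat (-0.52 ± 0.11). Of 15 tested progenitor and alternative lineage genes, Erg (1.09 ± 0.19) and Lyl1 (0.66 ± 0.12) were higher, and Mef2c (-1.11 ± 0.14), Id2 (-0.55 ± 0.13) and Kit (-0.33 ± 0.11) lower. Of 9 tested paralogs, Zeb2 alone was called (-0.82 ± 0.18), while its relative Zeb1 was not. Markers of other cell types moved over these times as well. The 7 NK and innate markers summed to 765.1 to 885.2 CPM at 0 h, 579.5 to 738.4 CPM at 6 h and 1041 to 1366 CPM at 12 h. At 18 and 24 h they summed to 1083 to 1091 and 997.9 to 1041 CPM. Of the 4 tested, 1, Gzma, was called higher at 24 h against 0 h and 1, Klrb1c, lower. Of 6 tested myeloid markers, S100a8 and S100a9 were called lower at 24 h. The part of these markers in the members' changes was not tested.

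Genes whose log2 CPM ran most like the called members over the 15 ProT libraries are given as a description, since the points share time and depth. For Tox these were Fnbp1 (Pearson r = 0.948), Cd63 (0.936) and Sh2d5 (0.927). For Satb1 they were Cd28 (0.927), Crebrf (0.925) and Rel (0.908), and for Lef1 Grina (0.895), Hgfac (0.863) and Mdk (0.856). Among the members, Tox ran most like Lef1 (r = 0.84) and Satb1 (r = 0.747).

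Sox4, an HMG-box factor of early thymocytes, needs a separate remark. Its single exon on GRCm38 chromosome 13 (28948919 to 28953713, minus strand) shares 2616 bases, 54.6% of it, with Gm26735, an RNA gene annotated on the other strand. In the 15 ProT libraries Gm26735 had 1408 to 5176 counts, always 84.0% to 86.4% of the Sox4 count. In the 6 mice of the empty-vector table it had 0 or 1 counts beside 652 to 2324 of Sox4. It was not among the genes listed for the AKT(E17K) mice. The strand setting of the counting is not given in the sources used here, so reads of the 2 genes cannot be told apart, and Sox4 levels should not be compared between tables. Within ProT cells Sox4 covered 691.5 to 928.6 CPM and was not called at any time, with a change of 0.06 ± 0.11 at 24 h.

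**Figure D4:**
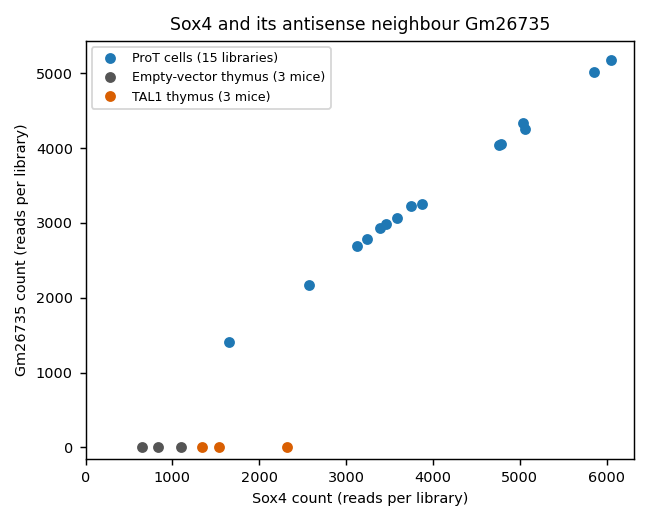
Counts per library of Gm26735 (vertical axis) against Sox4 (horizontal axis) in 15 ProT libraries and 6 mice. ProT points lie on a line at 84.0% to 86.4%, and the mice lie at 0 or 1.

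Positions of 8 other members are given on GRCm38 by GENCODE M21. Tcf7 spans 52252371 to 52283014 of chromosome 11, Lef1 131110471 to 131224356 of chromosome 3, and Bcl11b 107910403 to 108003602 of chromosome 12. Tox spans 6686353 to 6991557 of chromosome 4, Tox2 163203125 to 163324170 of chromosome 2, and Satb1 51736187 to 51833290 of chromosome 17. Zbtb7b spans 89377644 to 89394776 of chromosome 3, and Tle6 81590904 to 81601073 of chromosome 10. Exons of Lef1 share 13.7% of their bases with the antisense gene Gm43352, and Tox, Zbtb7b, Zeb1 and Satb1 share at most 3.42% with any neighbour. The antisense neighbour of Zbtb7b, Gm15417, still had 16 to 27 counts in empty-vector mice and 6 to 20 in TAL1 mice. These were 25.0% to 62.8% and 33.9% to 75.0% of the Zbtb7b counts. In AKT(E17K) mice Gm15417 had 0 to 13 counts, and with TAL1 added 0 to 5. With the strand setting not given, the part of Gm15417 in the Zbtb7b values was not tested.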

How the data were processed

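Libraries of 12 mouse thymuses and 15 ProT samples were made from RNA taken with a Promega Maxwell kit, per the labels' protocols. The authors deposited whole-number read counts per gene in 3 tables. FastQC, HISAT2, SAMtools and HTSeq with mm10 (GRCm38) are named in the submitters' processing notes. Versions, strand setting and annotation release are not given in the sources used here. In the tables of the empty-vector and TAL1 mice and of ProT cells, HTSeq's no-feature line held 29.8% to 33.0% and 17.3% to 22.6% of reads. These lines stayed out of totals and tests.

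From the counts, edgeR 4.0.16 (R 4.3.3) was run within each table with TMM factors, filterByExpr (minimum count 10) and quasi-likelihood F tests, giving 12357, 9782 and 13610 tested genes. All 5 ProT times shared 1 fit. SEs were derived from the fold change and its F statistic. CPM per kb used exon lengths of GENCODE M21. The contrast between the mouse tables used 11029 genes in 1 model. Alternatives were DESeq2 1.42.0, other scalings, no filter, leaving out single libraries and, for ProT cells, a replicate block or only 2 times. The scripts were tested on simulated data. Replicate libraries differed by more than sampling noise in every pair. In ProT cells at 6 and 12 h replicate 1 differed most from the others. Its pairs had a chi-square over degrees of freedom, larger where libraries differ more, of 18.39 to 22.85. Replicates 2 and 3 had 3.785 at 6 h and 7.308 at 12 h.

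All 10 members are named. Of each pathway list, up to 3 called genes per direction with the largest change are named, and for each member that varied in ProT cells the 3 genes most like it. Some genes that this rule names are not reported here. The members and lists were chosen with earlier results of these data known.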

Additional observations from a re-analysis of the deposited data

How the results depend on the processing

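Calls of Tox and Lef1 from 6 to 12 h, and of Tox at 12 h against 0 h, held in every alternative run, and each other call of a member between 2 groups was lost without some single library. Leaving out 1 library moved the number of called members from 0 to 2 for TAL1 against empty vector, 0 to 1 for TAL1 added to AKT(E17K), and 0 to 1 for the contrast between the mouse tables. In ProT cells against 0 h it ranged over 1 to 3 for 12 h, and over 0 to 2 for both later times. With genes of low count kept, 4 members were called in TAL1 mice (1 higher, 3 lower) and 1 in the AKT(E17K) table, where 5.19% and 0.196% of all genes were called. DESeq2 called 1 member in the AKT(E17K) table and 1 in the contrast between tables, where it called 0.777% and 1.605% of all genes. With only the 2 times compared, 1 member was called at 12 h and 1 at 18 h, where 10.7% and 17.8% of all genes were called. Lef1 had too few counts to be tested in these fits, so its absence there is not a failed test. With library totals alone, 1 member was called at 18 h and 0 at 24 h, where 10.05% and 23.4% of all genes were called. DESeq2 gave no adjusted p for Lef1 at 18 h, which is left out of these counts.

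Of the members' changes, 50 values over 21 results turned sign in an alternative, none of them called in either fit, with a largest original size of 0.67. With library totals alone Sox4 was 0.025 when TAL1 was added to AKT(E17K) and 0.062 from 6 to 12 h, Tox2 was 0.088 at 18 h, and Bcl11b was 0.10, 0.016 and 0.19 at 6, 18 and 24 h. Bcl11b at 6 h was 0.0020 with DESeq2, 0.0021 with median-of-ratios factors and 0.012 with genes of low count kept, and 0.021 at 24 h with these kept. Without single libraries Satb1 ran from -0.0039 to 0.11 in TAL1 mice and from -0.16 to 0.71 with TAL1 added to AKT(E17K), where Sox4 ran from -0.11 to 0.16. At 6 h Bcl11b ran from -0.069 to 0.049 and Zeb1 from -0.046 to 0.086, and at 12 h Tle6 from -1.57 to 0.15. At 18 h Tox2 ran from -0.15 to 0.11, Satb1 from -0.049 to 0.062 and Tle6 from -0.40 to 0.83. At 24 h Bcl11b ran from -0.049 to 0.067 and Zeb1 from -0.0057 to 0.12. From 6 to 12 h Sox4 ran from -0.11 to 0.11 and Tle6 from -0.60 to 1.28. From 12 to 24 h Lef1 ran from -0.44 to 0.91, Tox2 from -0.36 to 0.33, Sox4 from -0.11 to 0.00094 and Tle6 from -0.75 to 0.58. In the contrast between tables Tcf7 ran from -0.065 to 0.21, Satb1 from -0.21 to 0.67 and Zeb1 from -0.12 to 0.55. The causes of these changes were not tested.

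Over all genes, keeping those of low count moved the calls in TAL1 mice from 623 of 12357 tested genes (5.04%) to 1107 of 21312 (5.19%). In the AKT(E17K) table they went from 0 to 30 of 15292 (0.196%), and from 12 to 24 h from 0.191% to 0.479% of tested genes. Leaving out 1 library gave 337 (without M312) to 661 calls in TAL1 mice, 0 to 8 in the AKT(E17K) table and 2 to 174 in the contrast between tables, where 18 genes were called with all libraries and 177 by DESeq2. Against 0 h it gave 819 to 1521 calls at 12 h (1635 with all libraries), 419 to 1006 at 18 h (1200) and 1447 to 2281 at 24 h (2549). From 6 to 12 h it gave 657 to 2434 (1477), from 12 to 24 h 10 to 213 (26), and over all times 1810 to 3533 (2455). Fits of only 2 times changed them from 1200 to 2244 at 18 h and from 1477 to 573 from 6 to 12 h. ProT replicate numbers were also entered as a replicate block, which left 3, 2, 2 and 3 members called at 12, 18 and 24 h and from 6 to 12 h, as without it. No sign was seen that the numbers pair the samples, though so few libraries cannot settle it. Of 30 same-number pairs 1 had a correlation over 0.1, the median was -0.0080, and 4 of 15 libraries correlated best with their own number. With 3 libraries a group, counts of 1 to 31 for Lef1 limit its precision. In the main fit Lef1 was among the tested genes only through libraries of 0 and 6 h.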
